A study of Mus musculus with 12 samples.

Results

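The hotspots of meiotic recombination on mouse chromosomes 10, 11 and 19 are described here, from 1 deposited hotspot list of wild type testis and 1 of Ankrd31 knockout testis. All listed hotspots of these chromosomes were taken whose centre lay more than 10 Mb from the distal end in mm10. This gave 5011 of the 35514 hotspots in both lists: 1725 in the wild type list and 3286 in the knockout list. By overlap of at least 1 bp, 1490 were shared, 1796 were knockout-only and 235 were wild-type-only, while 515 further hotspots in the distal 10 Mb were left out. The 3 chromosomes were chosen by a measured value, the number of knockout hotspots over the number of wild type hotspots. Chromosome numbers, knockout-only shares and densities are therefore given as a description that supports nothing, and the share in the whole knockout list stands beside them. The series has 12 samples, of which 2 wild type and 2 knockout samples are DMC1 samples. The wild type animals were adult C57BL/6JCrl males. The knockout animals were adult males carrying the Ankrd31 tm1Atot allele, and the sources used here do not give their background strain, so genotype and strain cannot be told apart. Both groups were whole testis, immunoprecipitated with a goat antibody to DMC1. The sources used here do not give whether a list pools both samples. Each list therefore counts as 1 sample, there is no replicate check, and no p-value is given between genotypes. The assay does not measure expression, so the tissue was not checked against marker genes. Intervals below are exact binomial 95% intervals (Clopper-Pearson for shares, order statistics for medians) and cover counting error only.

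When meiotic cells cut their DNA to start recombination, the recombinase DMC1 loads onto the resected strands, and single-stranded DNA sequencing (SSDS) of what it binds maps these sites. In mice, most sites of recombination are marked by PRDM9, a histone methyltransferase that recognizes a DNA motif, and lie away from gene promoters. Promoters carry the same histone mark, H3K4me3, without PRDM9, and become sites of recombination in mice that lack PRDM9. ANKRD31 works with REC114 and other proteins that help SPO11 make breaks, and comparing the lists addresses where recombination starts without it. CpG islands are stretches rich in the dinucleotide CG, and most promoters of broadly expressed genes lie in one.

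The sequences of 9 promoters are shown because knockout-only hotspots of these chromosomes sat at gene starts rich in CpG and were scarce at gene starts poor in it. The first 6 belong to the 2 strongest knockout-only hotspots at a gene start on each chromosome, and the last 3 are the first olfactory receptor, keratin and vomeronasal receptor promoters in order that had no such hotspot within 1 kb. Each run covers 120 bases before the start and 30 from the start on, from the RefSeq promoters of GRCm38.p6, with each CpG in capitals. They lie at chr10:115362472-115362621 (Tmem19, minus strand), chr10:11281467-11281616 (Fbxo30, plus), chr11:23498010-23498159 (Ahsa2, minus) and chr11:109611360-109611509 (Wipi1, minus). The others lie at chr19:12796094-12796243 (Zfp91, minus), chr19:14598154-14598303 (Tle4, minus), chr10:78517308-78517457 (Olfr1358, plus), chr11:99285233-99285382 (Krt24, minus) and chr10:79148696-79148845 (Vmn2r80, plus).
Tmem19: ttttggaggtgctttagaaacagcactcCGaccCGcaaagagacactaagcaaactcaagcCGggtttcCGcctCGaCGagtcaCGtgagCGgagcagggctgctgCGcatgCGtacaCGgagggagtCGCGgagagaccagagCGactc
Fbxo30: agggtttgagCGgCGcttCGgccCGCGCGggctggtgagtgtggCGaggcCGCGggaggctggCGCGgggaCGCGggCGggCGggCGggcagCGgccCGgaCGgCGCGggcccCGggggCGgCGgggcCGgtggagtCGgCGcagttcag
Ahsa2: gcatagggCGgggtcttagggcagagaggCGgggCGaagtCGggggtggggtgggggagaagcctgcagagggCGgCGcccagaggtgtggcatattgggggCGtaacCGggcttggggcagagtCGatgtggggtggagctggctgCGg
Wipi1: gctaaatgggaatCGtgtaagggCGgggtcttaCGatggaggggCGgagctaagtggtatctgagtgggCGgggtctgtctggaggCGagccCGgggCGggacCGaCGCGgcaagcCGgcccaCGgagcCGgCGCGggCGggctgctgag
Zfp91: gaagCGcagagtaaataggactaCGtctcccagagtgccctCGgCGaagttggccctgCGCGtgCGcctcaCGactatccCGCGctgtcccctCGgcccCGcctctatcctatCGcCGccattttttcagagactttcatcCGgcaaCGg
Tle4: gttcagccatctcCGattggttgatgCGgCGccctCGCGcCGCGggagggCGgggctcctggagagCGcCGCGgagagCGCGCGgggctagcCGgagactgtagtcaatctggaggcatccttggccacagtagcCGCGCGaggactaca
Olfr1358: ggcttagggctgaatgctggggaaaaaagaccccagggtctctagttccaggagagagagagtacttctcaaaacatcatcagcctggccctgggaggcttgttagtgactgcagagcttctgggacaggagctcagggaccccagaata
Krt24: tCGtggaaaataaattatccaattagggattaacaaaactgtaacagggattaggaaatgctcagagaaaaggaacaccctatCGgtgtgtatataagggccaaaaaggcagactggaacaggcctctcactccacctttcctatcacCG
Vmn2r80: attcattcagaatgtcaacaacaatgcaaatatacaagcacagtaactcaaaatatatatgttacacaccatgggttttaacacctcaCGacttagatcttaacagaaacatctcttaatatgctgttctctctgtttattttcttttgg
The first 6 runs held 14, 27, 10, 17, 16 and 18 CpG in the order printed, and the last 3 held 0, 3 and 1. Knockout strength (reads minus background) at the 6 starts was 476 at Tmem19, 463 at Fbxo30, 659 at Ahsa2, 332 at Wipi1, 547 at Zfp91 and 471 at Tle4. The hotspot centre lay 141 bp inside the gene at Tmem19 and 87 bp inside at Ahsa2, but 227 bp before the start at Fbxo30.

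The weakest hotspots that were listed differed between chromosomes, and this bears on every count. In the knockout list the 5th percentile of reads per hotspot was 37 on chromosome 10, 35 on chromosome 11 and 55 on chromosome 19, against 41 to 54 on the other 16 autosomes (median 53). Chromosomes 10 and 11 thus had the lowest values of the 19 autosomes and chromosome 19 the highest. In the wild type list it was 41, 41.6 and 60, against 41 to 64 elsewhere (median 60). A common floor was therefore added, counting as knockout-only the hotspots of knockout strength 100 or more with no overlapping wild type hotspot of 70 reads or more. It gave 459 hotspots: 167 on chromosome 10, 174 on chromosome 11 and 118 on chromosome 19. They are not all among the 1796, because hotspots over a wild type hotspot of fewer than 70 reads are included. Such hotspots also count as shared below. Main counts and shares are given both as listed and at this floor. Hotspots of the 3 chromosomes held 465905 wild type and 473339 knockout reads.

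Knockout-only hotspots were dense on these chromosomes, and with the common floor only chromosome 19 stayed among the 3 densest autosomes. They numbered 713 on chromosome 10, 798 on chromosome 11 and 285 on chromosome 19, or 6.06, 7.32 and 5.88 per Mb. These were ranks 2, 1 and 3 of the 19 autosomes, the others lying between 2.49 and 5.07. At the common floor the densities were 1.42, 1.60 and 2.44 per Mb, ranks 12, 6 and 1, against 0.870 to 2.18 elsewhere. The ratio of knockout to wild type hotspot numbers was 1.79 on chromosome 10, 1.99 on chromosome 11 and 2.03 on chromosome 19, against 1.22 to 1.88 on the others. With both lists limited to hotspots of 70 reads or more, the ratios were 1.52, 1.58 and 1.84, ranks 10, 6 and 1. Knockout-only hotspots made up 54.7% (52.9 to 56.4) of knockout hotspots here and 47.9% of the whole knockout list. At the floor the share was 34.6% (32.0 to 37.2), against 30.6% (29.7 to 31.6) on the other autosomes. Chromosomes 13, 14 and 15 together had 2.86 knockout-only hotspots per Mb as listed and 1.22 at the floor. Their 5th percentile of reads was 53 in the knockout list and 43 in the wild type list.

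**Figure D1:**
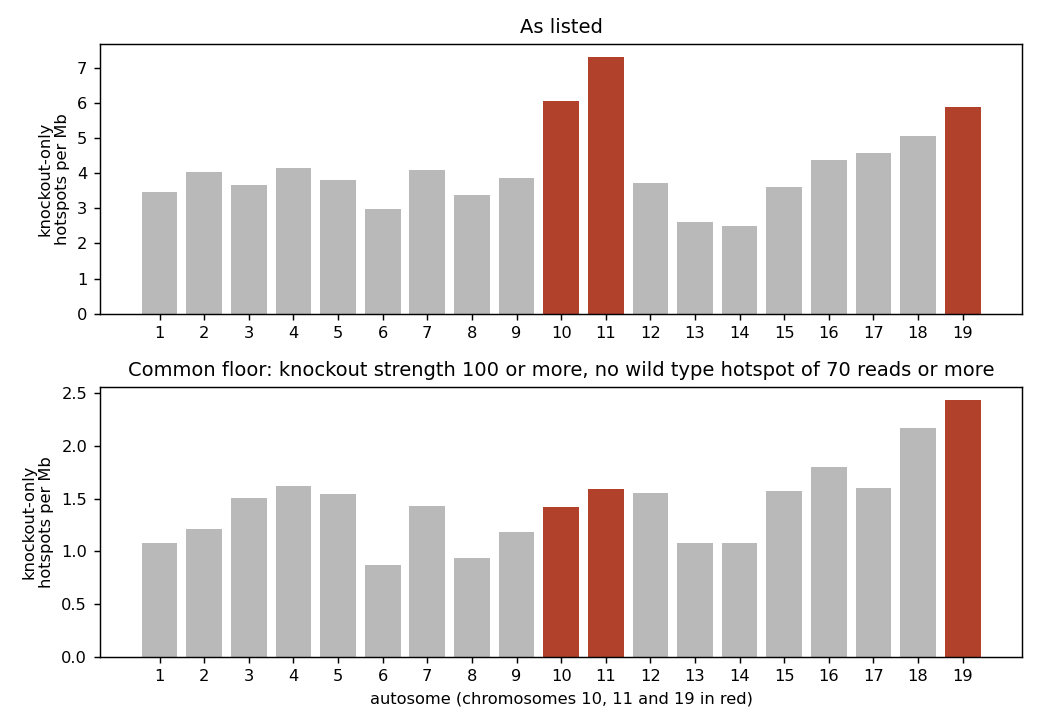
Knockout-only hotspots per Mb on each autosome outside the distal 10 Mb, as listed (top) and at the common floor (bottom), with 1 bar per chromosome and no replicates. Chromosomes 10, 11 and 19 (red) stand at 6.06, 7.32 and 5.88 per Mb in the top panel, and at 1.42, 1.60 and 2.44 in the bottom panel, where chromosomes 10 and 11 lie among the others.

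The last knockout hotspot inside the distal limit on chromosome 10 had a strength of 77 and the first outside it 80. On chromosome 11 these were 39 and 76, and on chromosome 19 they were 58 and 111.

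Most wild type hotspots were still listed in the knockout. The wild type list had 6.52 hotspots per Mb on chromosome 10, 6.55 on chromosome 11 and 5.04 on chromosome 19 (ranks 2, 1 and 12), and 86.4% (84.7 to 87.96) of them were shared, against 87.1% (86.5 to 87.8) on the other autosomes. The 235 wild-type-only hotspots compare with 14.8% of the whole wild type list. They were weak, with a median strength of 48 (quartiles 38 and 70) against 155.5 for shared hotspots in the wild type.

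Knockout-only hotspots gathered at gene ends. Of the 1796, 815 (45.4%, 43.1 to 47.7) had their centre no more than 1 kb from an end of a protein-coding gene, while such bases made up 3.73% of the sequence. The share was 36.2% on chromosome 10, 51.0% on chromosome 11 and 52.6% on chromosome 19. On the other autosomes it was 47.4% (46.2 to 48.5), so the 3 chromosomes together were not higher. At the common floor the 3 shares were 62.3%, 63.8% and 64.4%, or 63.4% (58.8 to 67.8) together, against 59.7% (57.8 to 61.6) elsewhere. Shared hotspots lay at gene ends in 39 of 1490 cases (2.62%, 1.87 to 3.56) and wild-type-only hotspots in 6 of 235 (2.55%, 0.943 to 5.47).

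The gene ends in question were mostly starts. A start with its strand was known for 2338 of the 2866 protein-coding genes. Of the 815 knockout-only hotspots at gene ends, 656 lay within 1 kb of such a start, 21 at a 3′ end alone and 138 at an end whose strand is not in the table or that is neither. A further 117 lay at an inner start, more than 1 kb from either end of the gene span. Together, 773 (43.0%, 40.7 to 45.4) of the 1796 were at a start and 21 (1.17%, 0.725 to 1.78) at a 3′ end alone. Shared hotspots, placed here by their knockout centre, were at a start in 14 cases (0.940%, 0.515 to 1.57) and at a 3′ end alone in 23 (1.54%, 0.981 to 2.31). The centres at starts lay a median of 39 bp inside the gene (quartiles 81 bp before and 177 bp inside), 600 of them within 250 bp. As listed, 59.8% lay inside the gene, and at the common floor 48.8% did. Knockout-only hotspots at starts were stronger than the rest: the median strength was 79 at starts, 49 in gene bodies and 49 between genes.

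**Figure D2:**
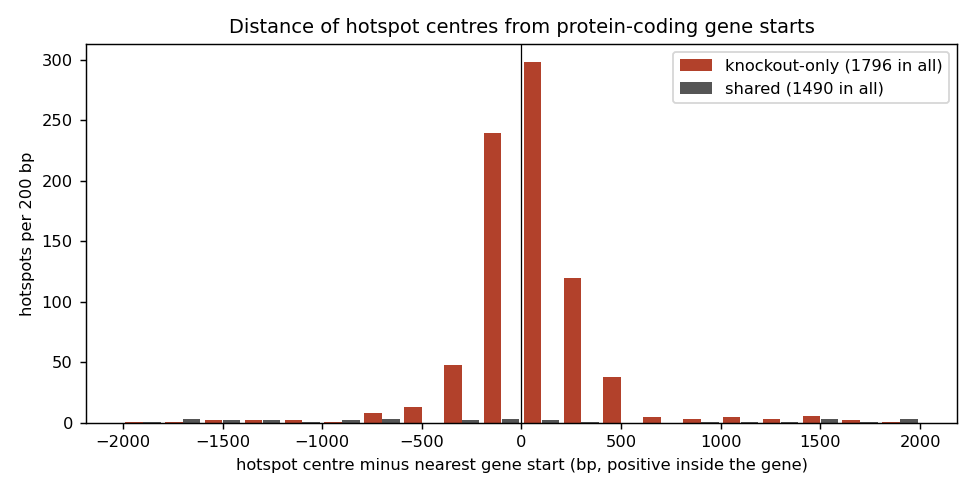
Number of hotspots per 200 bp by the distance of their centre from the nearest protein-coding gene start (bp, positive values inside the gene) on chromosomes 10, 11 and 19. Knockout-only hotspots (red) peak at 298 in the first 200 bp inside the gene and 239 in the last 200 bp before it, while shared hotspots (grey) stay at 3 or fewer in every bin.

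The rest of the knockout-only hotspots lay away from gene ends, and were most dense on chromosome 10. There were 3.87 such hotspots per Mb on chromosome 10, 3.58 on chromosome 11 and 2.79 on chromosome 19, against 1.95 on the other autosomes together. Chromosomes 10 and 11 ranked first and second. With the common floor they were 0.535, 0.578 and 0.867, against 0.544, with ranks 10, 8 and 2. The excess away from gene ends on chromosomes 10 and 11 thus lay in hotspots under this floor. Of the 981 away from gene ends, 117 were at the inner starts given above, 56 near the start of a long noncoding RNA gene, 315 elsewhere inside a protein-coding gene and 493 between genes.

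The share of genes with a knockout-only hotspot at an end was 31.7% (29.98 to 33.4; 908 of 2866), beside 24.8% of all autosomal protein-coding genes. It was 34.0% on chromosome 10, 32.6% on chromosome 11 and 26.6% on chromosome 19. With the common floor it was 11.5% (10.4 to 12.7), against 11.2% (10.7 to 11.7) on the other autosomes. Chromosome 11 then had the lowest of the 3 shares, at 8.98%, with 14.1% on chromosome 10 and 13.7% on chromosome 19.

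Promoters with a knockout-only hotspot were rich in CpG. Over the 300 bases of each RefSeq promoter (250 before the start and 50 from it), the median CpG count was 25 (quartiles 18 and 31) for the 803 with a knockout-only hotspot within 1 kb. It was 8 (quartiles 3 and 20) for the 1535 without. Median GC content was 63.7% and 54.3%. The share with a knockout-only hotspot was 1.77% (0.765 to 3.45) of 453 promoters at a CpG observed over expected ratio of 0 to 0.2, and 13.0% (9.56 to 17.1) of 331 at 0.2 to 0.4. It was 27.0% (21.96 to 32.5) of 289 at 0.4 to 0.6, 45.1% (40.7 to 49.6) of 503 at 0.6 to 0.8, and 58.7% (55.1 to 62.2) of 762 above. Only at a ratio over 0.8 was a knockout-only hotspot present at most promoters. At the common floor the same 5 shares were 0.221%, 3.02%, 7.61%, 14.7% and 24.5%, in the same order. Wild type hotspots were near 3, 1, 2, 0 and 3 of these promoters, too few to show or exclude such an order.

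**Figure D3:**
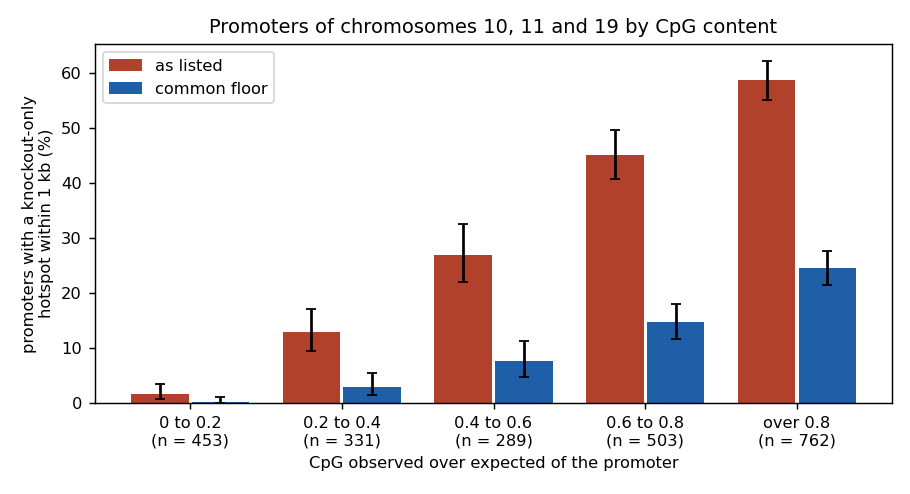
Percent of promoters on chromosomes 10, 11 and 19 with a knockout-only hotspot within 1 kb of the start, by the CpG observed over expected ratio of the promoter, as listed (red) and at the common floor (blue). Bars are 1 value each with exact binomial 95% intervals, and climb from 1.77% to 58.7% as listed and from 0.221% to 24.5% at the floor.

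Short motifs were searched on both strands of the 300 bases. GGGCGG, the core bound by SP1-type factors, was in 73.2% (70.02 to 76.3) of promoters with a knockout-only hotspot, 38.8% (36.4 to 41.3) of those without and 50.6% of all. TATAAA, the TATA box, was in 5.85% (4.33 to 7.71), 17.3% (15.4 to 19.25) and 13.3%. CCAAT was in 40.97%, 37.5% and 38.7%, with overlapping intervals between promoters with and without. CCGGAAG, the core of ETS factors, was in 17.7% (15.1 to 20.5), 10.5% (9 to 12.1) and 13.0%. At the common floor, with 294 promoters, it was in 13.3% (9.61 to 17.7), which overlaps the value without a hotspot, while GGGCGG was in 79.6% and TATAAA in 6.12%. GCATGCG, part of the NRF1 motif, was in 8.22%, 3.58% and 5.18%, TGACGTCA, the CRE, in 4.23%, 1.76% and 2.61%, and CNCCTCAG in 9.96%, 8.14% and 8.77%. The floor gave 8.50%, 4.08% and 11.6% for these 3, and 43.5% for CCAAT. The motifs were not compared at matched CpG content. Of the sequences printed above, Tmem19 held GCATGCG, Fbxo30, Ahsa2, Wipi1 and Tle4 held GGGCGG, and Ahsa2, Tle4 and Krt24 held CCAAT. None of the motifs searched was in the printed runs of Zfp91, Olfr1358 and Vmn2r80.

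Gene groups differed widely in how often an end carried a knockout-only hotspot, read against the 31.7% of all genes here. Of 27 genes of meiosis and DNA repair, 16 did (59.3%, 38.8 to 77.6), 7 of them at the common floor. The list was chosen with results of these data known, so its share is not independent support. The strongest were Rev3l, the catalytic subunit of the translesion polymerase zeta (212), Sycp3, a lateral element protein of the synaptonemal complex (209), and Gm960, also called Top6bl, a subunit of the break-forming complex with SPO11 (177). Next were Meioc, needed for meiotic prophase (145), Rad51d (144), and Hells, a chromatin remodeler (140). Rad50, Brca1, Brip1, Hormad2, Rpa1, Dna2, Helb and Ddb1 were also among the 16, at strengths from 43 to 113. Rad51c and Tex14 shared 1 hotspot of strength 35 between their ends. The 11 without a knockout-only hotspot were Hus1, Meikin, Top3a, Spata22, Eme1, Psmc3ip, Cntd1, Rad9a, Mus81, Majin and Fen1.

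Housekeeping families were small, and their intervals are wide. Ribosomal protein genes had a knockout-only hotspot in 4 of 9 cases (13.7 to 78.8%), led by Rps27a, which encodes a ubiquitin fusion with a small-subunit protein (103). The mitochondrial ribosome had 4 of 14 (8.39 to 58.1%), the proteasome 3 of 6 (11.8 to 88.2%) and respiratory complex I 1 of 6 (0.421 to 64.1%). All 4 intervals include the share of all genes. With the common floor the counts were 1, 0, 0 and 0, beside 11.5% of all genes. Zinc finger genes had 7 of 28 (10.7 to 44.9%), 1 of them with the floor, among them Zfp91 (547), with the other 6 between 35 and 85.

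Several other gene families had a knockout-only hotspot at few or none of their genes. Olfactory receptors had 2 of 156 (1.28%, 0.156 to 4.55), Olfr1371 at 42 and Olfr316 at 51. Keratins and keratin-associated proteins had 1 of 51, Krt10 at 34. No knockout-only hotspot was found at 21 Ms4a genes, 15 Cyp2c genes, 11 chemokines, 10 Hoxb genes, 8 Schlafen genes and 4 vomeronasal receptors, where the exact upper limits were 16.1%, 21.8%, 28.5%, 30.8%, 36.9% and 60.2%. For Schlafen genes and vomeronasal receptors the interval includes the 31.7% of all genes here, so these families are too small to tell. The intervals take each gene as a separate draw, and genes of a family that lie side by side are not. They can therefore be too narrow, and an upper limit under 31.7% does not by itself set a family below 31.7%. Myosin heavy chains had 1 of 7 (0.361 to 57.9%, which also includes it), the nonmuscle Myh10 at 133, also with the floor. Olfactory receptors and keratins had 0 with the floor.

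The strongest knockout-only hotspots on each chromosome lay at or near gene ends, with 1 exception. On chromosome 10 the first lay inside Zbtb2, a zinc finger factor, 1075 bp from its end (638, chr10:4385516-4388550). The next were at the ends of Tmem19 (476), Phlda1 (472), Fbxo30, an F-box protein (463), and Stx11, a syntaxin (397). On chromosome 11 they were at the starts of Ahsa2, a co-chaperone of HSP90 (659, chr11:23496972-23498932), and Wipi1, an autophagy protein (332), and at an inner start of Usp34, a deubiquitinase (323). The transcription factor gene Hlf had 1 at its start (324), and the exception lay 27092 bp outside it (352). On chromosome 19 they included those at Zfp91 and Lpxn (547, chr19:12794086-12796844), Tle4, a corepressor (471), Ostf1 and Nmrk1 (428), and the ubiquitin ligase Hectd2 (386). For Phlda1 and Hectd2 the table gave no strand, so which end it was is not known here. The strongest of all, at Ahsa2, ranked 794 among the 22034 knockout hotspots.

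Along the chromosomes, knockout-only hotspots were spread over all 56 windows of 5 Mb, with a few crowded ones. The 10 windows with the most held 30.7% of them. The most were in chromosome 10 from 115 to 120 Mb (85), chromosome 11 from 95 to 100 Mb (58) and chromosome 11 from 105 to 110 Mb (56). The fewest were in chromosome 10 from 45 to 50 Mb (9), the first window of chromosome 10, of which 2 Mb count (13), and chromosome 11 from 35 to 40 Mb (16). Per Mb, the first window of chromosome 19 came second, with 24 hotspots in 2 Mb. At the common floor the order changed: that window had 6.50 per Mb and came first, chromosome 11 from 20 to 25 Mb had 4.40 and came second, and chromosome 10 from 115 to 120 Mb had 3.20 and was rank 5.

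**Figure D4:**
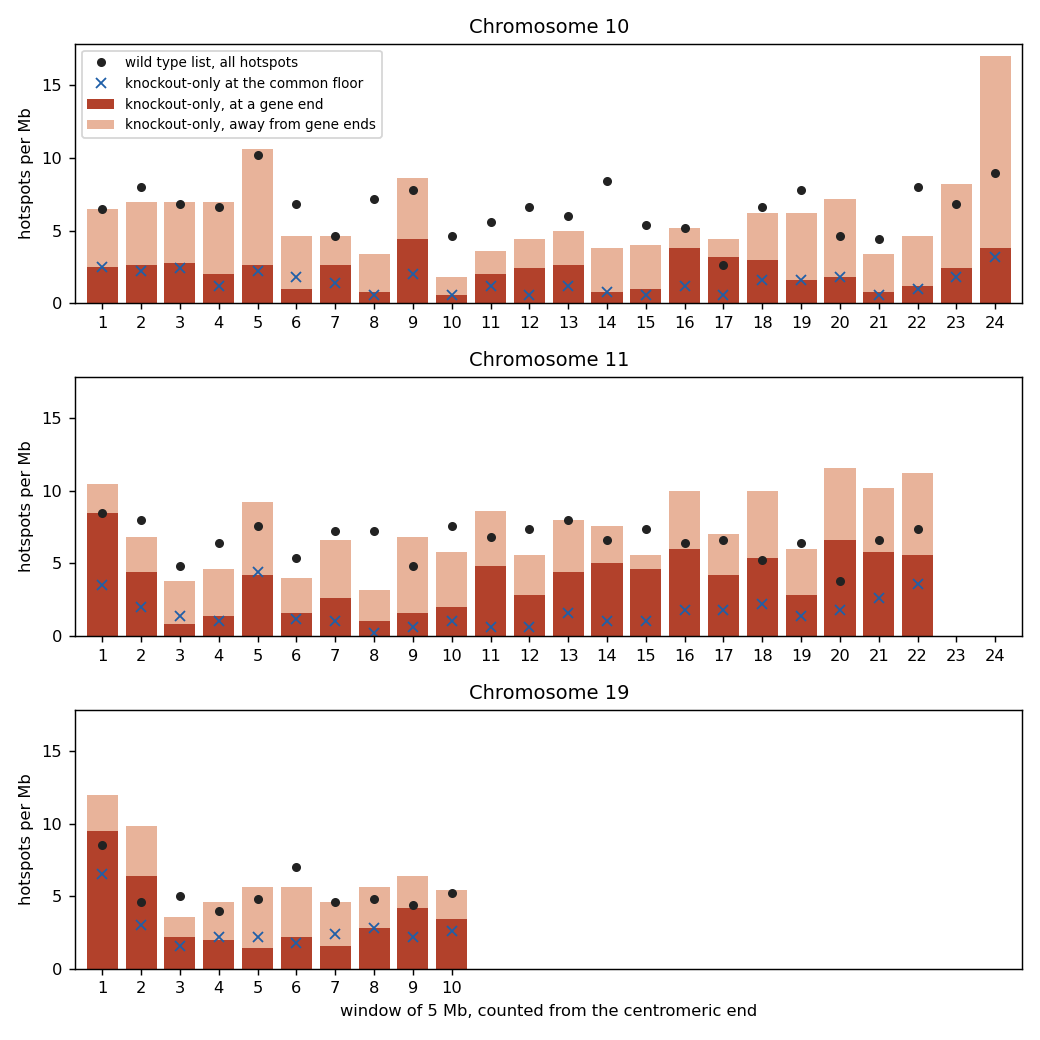
Hotspots per Mb in each window of 5 Mb, numbered from the centromeric end, on chromosomes 10, 11 and 19: knockout-only at a gene end (dark bars), knockout-only elsewhere (light bars, stacked), all wild type hotspots (dots) and knockout-only at the common floor (crosses, which include hotspots over a weaker wild type hotspot). Window 24 of chromosome 10 reaches 17 per Mb, of which 13.2 lie away from gene ends, and the first window of chromosome 19 reaches 12 with 6.50 at the floor.

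Over the 56 windows, Spearman's rho with protein-coding genes per Mb was 0.85 for knockout-only hotspots at gene ends, -0.10 for those away from them, and 0.54 for both together. For wild type hotspots it was 0.03. With the common floor it was 0.32. Between knockout-only and wild type hotspots per Mb, rho was 0.36, and 0.46, 0.08 and 0.19 on chromosomes 10, 11 and 19 in turn. Between knockout-only hotspots and genes, it was 0.40, 0.62 and 0.48 on these. Hotspots at gene ends can be counted only where there are genes, so the 0.85 was partly set in advance by that split. The windows share both lists, so all these values are descriptions. In the 19 windows with 1.2 to 5 genes per Mb there were 4.83 knockout-only hotspots per Mb, in the 18 middle windows 7.24, and in the 19 windows with 11.8 to 33.5 genes per Mb 7.58. On the other autosomes, with windows split at the same gene densities, the values were 2.81, 4.04 and 4.80. With the floor applied they were 1.19, 2.05 and 1.83 here and 1.13, 1.52 and 1.48 on the others, so the gap was small in gene-poor windows at this floor.

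The most crowded window, chromosome 10 from 115 to 120 Mb, had 37 genes, and 66 of its 85 knockout-only hotspots lay away from gene ends. Its bins from 117 to 118 Mb, with 23, and 116 to 117 Mb, with 22, held the most knockout-only hotspots of any 1 Mb bin on the autosomes, and had 6 and 2 at the common floor. The strongest were at the starts of Tmem19 (476), Rab3ip (366), Mdm2, the ubiquitin ligase of p53 (225), and Cand1 (181). Near Lgr5, a stem cell receptor, 1 of strength 146 lay 30495 bp outside the gene. This window also had 45 wild type hotspots. Its 33 shared hotspots had a median log2 relative strength of -0.92 (knockout over wild type), 13 of them over 2-fold lower and 0 over 2-fold higher. Wild type and knockout strength were 331 and 63 next to Rap1b, 654 and 151 next to Tspan8, and 329 and 64 inside Thap2.

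The first window of chromosome 19 held 67 genes in 2 Mb, and 19 of its 24 knockout-only hotspots were at gene ends. The strongest were at Kmt5b, a histone methyltransferase (243), Tesmin, a testis protein (241), and inside Kdm2a, a histone demethylase (232). Of its 17 wild type hotspots, 10 were wild-type-only, at strengths up to 125. The 7 shared hotspots had a median log2 relative strength of -2.00, and 5 were over 2-fold lower, beside 15.8% of all shared hotspots. Wild type and knockout strength were 602 and 102 inside Lrp5, a WNT coreceptor, and 706 and 125 inside Grk2, a receptor kinase. It was 420 and 87 inside Pcx, pyruvate carboxylase.

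Chromosome 11 from 95 to 100 Mb held 163 genes, 58 knockout-only and 19 wild type hotspots. Of the summed knockout strength in this window, 75.7% was in knockout-only hotspots, with 72 knockout hotspots at a mean strength of 68.1. Kpnb1, the importin beta subunit, had the strongest (228). The shared hotspots were few, 14, with a median log2 relative strength of -0.58. Of these, 6 were over 2-fold lower and 1, near Gm11595 (41 and 79), over 2-fold higher, beside 15.8% and 13.2% of all shared hotspots. Beside the keratin-associated protein genes Krtap31-1 and Krtap4-7, wild type strength was 331 and 499, against 111 and 194 in the knockout. In the window from 105 to 110 Mb the strongest were at Wipi1 (332), Bptf, a chromatin remodeler subunit (289), Gna13, a G protein (245), and Kpna2, an importin alpha (231). Shared hotspots there went from 1730 to 310 inside Tanc2 and from 1562 to 461 inside Tlk2. The median over its 30 shared hotspots was -0.15, with 8 over 2-fold lower and 3 over 2-fold higher. The latter included hotspots near Gna13 (33 and 62) and Abca8b (25 and 45).

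The windows with few knockout-only hotspots were poor in genes, with 6 genes each in chromosome 10 from 45 to 50 Mb and chromosome 11 from 35 to 40 Mb. Their shared hotspots had median log2 values of 0.31 and 0.18. Over 2-fold lower were 2 of 22 and 0 of 34, and over 2-fold higher 6 and 2, beside 15.8% and 13.2% of all shared hotspots. A shared hotspot inside Hace1, in the chromosome 10 window, went from 544 to 86. In the first of these windows the few knockout-only hotspots still included gene ends, at the 3′ end of Lin28b (256), at Bves (104) and at the start of Hace1 (95). In the latter, Pank3, a pantothenate kinase, had 228 at its start. The first window of chromosome 10, with 12 genes in 2 Mb, is short and was not sparse per Mb (6.50).

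Neighboring knockout hotspots were sometimes all knockout-only. The longest such run held 15 hotspots over 843.9 kb (chr11:97041092-97884988), 9 of them at gene ends among 23 genes, with strengths from 27 to 228 and 3 at the common floor. It passed the ends of Tbkbp1 (62), Kpnb1 (228), Npepps (60), Mrpl45 (55), Socs7 (99), Mllt6 (112), Pip4k2b and Cwc25 (121), and Fbxo47 (74). There were 3 runs of 14: chr10:119130632-119840647 with 1 hotspot at a gene end, chr11:61174353-62249915 with 10, and chr11:69579569-70238396 with 12 among 51 genes. On the other autosomes the longest run was 17, on chromosome 7.

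Shared hotspots were compared by relative strength, which is strength over the median of autosomal shared hotspots in the same list (wild type 182, knockout 151). The median log2 of knockout over wild type was -0.05 (-0.12 to -0.01) over the 1490, against 0.04 (0.01 to 0.06) on the other autosomes. It was -0.10 on chromosome 10, -0.03 on chromosome 11 and -0.03 on chromosome 19, with intervals that overlap. Over 2-fold lower were 236 (15.8%, 14.02 to 17.8), beside 15.8% of all shared hotspots. Over 2-fold higher were 180 (12.1%, 10.5 to 13.8), beside 13.2%. Both shares were near those of the whole series. On strengths as deposited each log2 value is 0.27 lower, which puts the median of hotspots between genes, given next, below 0.

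Relative to that median, shared hotspots inside genes were lower and those between genes were higher. Inside genes the median log2 was -0.24 (-0.37 to -0.17, n = 753), and 23.8% were over 2-fold lower. Between genes it was 0.15 (0.06 to 0.20, n = 698), and 7.74% were over 2-fold lower. The other autosomes gave -0.26 and 0.28. Strong hotspots were lower too. At a geometric mean strength of both lists of 300 or more the median was -0.44 (n = 345), and under 100 it was 0.20 (n = 539). Median wild type strength was 175 inside genes and 143 between them, and its part in the difference by place was not tested.

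Shared hotspots near a knockout-only hotspot were lower than those far from any. The median log2 was -0.27 (-0.46 to -0.10, n = 289) within 20 kb, -0.19 at 20 to 50 kb, -0.14 at 50 to 100 kb, 0.06 at 100 to 200 kb and 0.27 (0.16 to 0.41, n = 213) beyond 200 kb. The share over 2-fold lower was 21.8% within 20 kb and 4.23% beyond 200 kb. Distances to knockout-only hotspots at the common floor gave -0.65 (-0.92 to -0.17, n = 76) within 20 kb and 0.12 (0.05 to 0.18, n = 878) beyond 200 kb. The order was the same on the other autosomes, from -0.24 to 0.28, so it was not particular to these chromosomes.

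**Figure D5:**
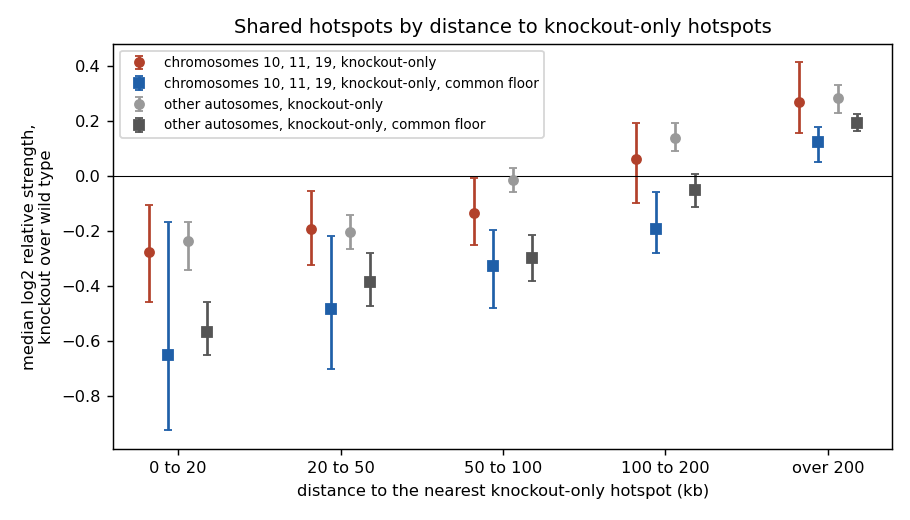
Median log2 relative strength (knockout over wild type) of shared hotspots by the distance to the nearest knockout-only hotspot (kb), on chromosomes 10, 11 and 19 and on the other autosomes, for knockout-only hotspots as listed and at the common floor. Error bars are exact 95% intervals of the median over hotspots, and the values climb from -0.27 to 0.27 as listed and from -0.65 to 0.12 at the floor on chromosomes 10, 11 and 19.

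Place and distance both went with the difference. Inside genes, the median was -0.48 (n = 353) within 50 kb of a knockout-only hotspot, -0.15 (n = 334) at 50 to 200 kb and 0.00 (n = 66) beyond. Between genes, it was -0.03 (n = 256), 0.11 (n = 297) and 0.44 (n = 145). For shared hotspots of wild type strength 100 or more, the value was -0.80 inside genes within 50 kb and 0.22 between genes beyond 200 kb. By windows, the median of shared hotspots and the density of knockout-only hotspots had a Spearman's rho of -0.53 over the 56 windows, and with genes per Mb it was -0.51. With the median wild type strength of the shared hotspots, which enters the log2 value itself, it was -0.46. The separate parts of these measures were not tested. In the windows poorest in genes 7.96% of shared hotspots were over 2-fold lower, in the middle ones 17.7%, and in the richest 23.3%.

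Named shared hotspots ran both ways. The strongest in the wild type was inside Ankfn1 on chromosome 11 (wild type 3977, knockout 1268, log2 -1.38). On chromosome 10 it was beside Nedd1, a centrosome protein (3310 and 1597, -0.78), and on chromosome 19 inside Hnrnpul2 (1472 and 376, -1.70). The largest decreases were inside Hcfc2 (1831 and 191, -2.99) and Hace1, a ubiquitin ligase (544 and 86, -2.39), on chromosome 10. Inside Ehbp1 (596 and 82, -2.59) and Ggnbp2 (330 and 50, -2.45) they were on chromosome 11. On chromosome 19 they were inside Pkd2l1, an ion channel (1307 and 210, -2.37), and Sdhaf2, an assembly factor of succinate dehydrogenase (1103 and 178, -2.36). The largest increase on chromosome 10 was at the start of Tnfaip3, an inhibitor of NF-kB (48 and 1293, 5.02), on chromosome 11 it was 51342 bp from Nlrp1b (37 and 180, 2.55), and on chromosome 19 it was 292674 bp from Dmrt2 (87 and 389, 2.43). Of the 3 largest decreases on each chromosome, all 9 lay inside a gene. Of the 9 largest increases, 2 were at a gene end, 1 inside a gene and 6 between genes. These were picked as the extremes, so their places are a description.

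Wild-type-only hotspots lay mostly inside genes, 146 of 235 (62.1%), and rarely at starts (1, at a strength of 77). Of shared hotspots here, placed by their knockout centre, 49.7% lay inside genes. On the other autosomes 61.1% of wild-type-only hotspots did, so the share was not particular to these chromosomes. The strongest wild-type-only hotspots here were beside Gnaq (367), inside Slf2 (246), beside Naa40 (194), inside Usp34 (187), inside Aig1 (185) and inside Ankfy1 (182). Usp34 carried a knockout-only hotspot at an inner start and a wild-type-only hotspot in its body, and Ankfy1 a wild-type-only and a shared hotspot that was lower in the knockout (588 and 92).

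Knockout-only hotspots carried 33.8% of the summed knockout strength on these chromosomes, against 26.8% on the other autosomes. They covered 3.02 Mb at a mean strength of 82.3, of 5.40 Mb covered by all knockout hotspots at a mean of 133. The share was 30.7% on chromosome 10, 34.3% on chromosome 11 and 39.7% on chromosome 19, and 24.6% over all 3 at the common floor. Of the autosomal strength, the 3 chromosomes held 12.3% in wild type and 13.2% in knockout testis, while wild type hotspots covered 3.02 Mb at a mean strength of 257.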

How the data were processed

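Single-stranded DNA bound by DMC1 was sequenced from testis, and 1 hotspot list per genotype was used. The authors deposited, per the file headers, each hotspot's position, read count, background signal, strength, strength as a percent of the list and a rank score. In 100% of rows strength equalled reads minus background. CASAVA, Bowtie2, BWA, MACS2 and mm10 are named in the submitters' processing notes, and versions and roles are not given in the sources used here.

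Hotspots overlapping by at least 1 bp were called shared. Gene ends came from RefSeq gene spans without exons, so exon and intron were not told apart. Strand came from the RefSeq promoter table, which held 81.6% of the 2866 genes. Chromosome lengths were written by hand from general knowledge, lengths were counted from 3 Mb, and whether positions start at 0 or 1 is not given. Windows shorter than 2.5 Mb at the distal limit were left out. On each chromosome the named hotspots were the 5 strongest knockout-only, 3 strongest wild-type-only and 3 strongest shared, and the 3 largest increases and decreases among shared hotspots at or above the median strength in either list. The 3 windows with the most and the 3 with the fewest knockout-only hotspots, the longest run and up to 6 members of each gene list were also named. The first window of chromosome 19, hotspots within windows, and further genes of meiosis and repair were named after their values were seen. Some hotspots that this rule selects are not reported here. Members, gene lists and windows were chosen with earlier results of these data known. The common floor was added after seeing the data. Hotspots of the 3 chromosomes held 465905 wild type and 473339 knockout reads, with 4.96% and 7.53% background, and all hotspots held 4376692 and 4203380. These are reads in hotspots, and library depth is not given in the lists. With 1 list a genotype no test was made. Python 3.11.15, numpy 2.4.6, pandas 2.3.3, scipy 1.17.1 and matplotlib 3.10.9 were used, and the scripts were tested on simulated data.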

Additional observations from a re-analysis of the deposited data

How the results depend on the processing

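No paired analysis was possible because each genotype has 1 list with no values per sample, and for the same reason no sample could be left out. Of 58 alternative values 21 stayed within the counting error or the set margin. With both lists at strength 100 or more, the ratio of hotspot numbers was 1.31, the shared share of wild type hotspots 77.6% and the knockout-only share 40.6%. With the knockout list limited to as many of its strongest hotspots as the wild type list has, the ratio was 0.935 and the shared share 59.8%. Over the whole lists that ratio is 1 by construction, so 0.935 only sets these chromosomes against the rest. Knockout hotspots of strength 100 or more against the whole wild type list gave a knockout-only share of 32.1%, 67.1% at gene ends, 11.3% of genes, a correlation with genes of 0.30 and 34.4% in the top windows. The next 3 settings were chosen after seeing the data. Both lists at 70 reads or more gave a ratio of 1.60. Wild type hotspots of strength 100 or more, with a knockout partner of 70 reads or more, gave a shared share of 91.6%. The common floor gave a knockout-only share of 34.6%, taken over knockout hotspots of strength 100 or more. It also gave 63.4% at gene ends, 11.5% of genes, a correlation of 0.32 and 24.6% of summed strength. Gene-end windows of 500 bp and 2 kb gave 40.2% and 49.8% of knockout-only hotspots, 1.34% and 6.38% of shared hotspots, and 27.6% and 34.9% of genes. All annotated genes gave 52.6% and 5.30%. In windows of 10 Mb the correlation of wild type hotspots with genes was -0.13, of the opposite sign to 0.03, with 0.11 in windows of 2 Mb and 0.12 in windows moved by 2.5 Mb. The median log2 of shared hotspots was -0.32 on strengths as deposited, -0.24 as a percent of the list, -0.35 at wild type strength 100 or more and -0.23 at a mean of 100 or more. The share over 2-fold lower was 23.1%, 21.2%, 22.8% and 20.1% in that order, and over 2-fold higher 6.64%, 7.78% and 5.96% in the first 3. The limits on strength and reads leave fewer hotspots by construction, and the cause of the other changes was not tested. Counts include weak hotspots, and the 5th percentile of knockout reads was lowest on chromosomes 10 and 11. The smallest knockout read count of a hotspot was 26 and 25 there, and 23 on chromosome 12.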

Other observations

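Some knockout-only hotspots sat between genes that start back to back. On the 3 chromosomes 68 had starts of protein-coding genes on opposite strands within 1 kb, 54 of them head to head, and the centre lay between the starts in 24. Their median strength was 69, against 79 at the 703 with the start of 1 gene. Knockout-only hotspots at gene ends had a median width of 1.72 kb, those away from gene ends 1.52 kb, and shared hotspots 1.56 kb in the knockout list. Chromosome 19 from 10 to 15 Mb, with 134 genes, held 18 knockout-only hotspots, 11 of them at gene ends, so a window rich in genes was not always rich in knockout-only hotspots.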
